A study of Canis lupus familiaris with 17 samples.

Results

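Plasma cells of the blood were taken here as leukocyte barcodes whose own counts met a marker rule, and they were described in 7 healthy dogs and 10 dogs with osteosarcoma (OS). The 17 libraries held 93013 barcodes, of which 84345 lay within the limits of 200 to 4500 genes, 500 to 20000 unique molecular identifiers (UMIs, which count single captured RNA molecules) and a mitochondrial share under 10%. A kept barcode was called a member where it held at least 5 UMIs of JCHAIN, no UMI of CD3E and a UMI of at least 2 of the 6 genes MZB1, TXNDC5, TNFRSF17, DERL3, FKBP11 and CCR10. This left 572 members. The members were therefore selected on the counts of these 8 genes, and the levels of these genes are given below as a description with no test.

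All dogs were client-owned and carried no engineered allele (their genotype is labelled Wt). The healthy dogs were middle-aged, and the dogs with OS had a primary tumor that had not been treated, with some of them old by the study's own classes. Blood was drawn into EDTA, leukocytes were separated by density centrifugation and red cells were lysed, and single cells were captured in droplets and counted by UMI from the 3′ ends of their RNA. Each dog gave 1 library, so the dog was the replicate, and the comparison between the groups asked how circulating leukocytes differ in dogs that bear this bone tumor.

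Plasma cells are the antibody-secreting end stage of B cells. Their maturation is driven by the transcription factors PRDM1 (BLIMP-1), IRF4 and XBP1, which shut down the B cell program and enlarge the endoplasmic reticulum (ER) so that immunoglobulin can be made, folded and exported in bulk. Each cell as a rule secretes 1 kind of heavy chain with 1 kind of light chain. JCHAIN joins the units of polymeric IgM and IgA, MZB1, TXNDC5 and FKBP11 help to fold proteins in the ER, DERL3 takes part in the removal of misfolded ones, TNFRSF17 (BCMA) is the receptor for the survival factor APRIL, and CCR10 is a chemokine receptor of cells that home to mucosa and skin. Newly formed plasmablasts still divide and travel through the blood, whereas most mature plasma cells reside in bone marrow and mucosa.

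The 17 libraries held between 7740230 and 56510134 UMIs in total. OS dog 3 was the smallest library, with 1239 kept barcodes against 3313 to 7070 in the other 16 dogs. Members held a median of 15159 UMIs and 3164.5 genes per barcode, against 5364 UMIs over all kept barcodes and 4185 UMIs in B barcodes. The median mitochondrial share was 6.48% in members, 4.8% in B barcodes and 2.89% in all kept barcodes. Of 572 members, 297 (51.9%) had at least 15000 UMIs, so that many lay close to the upper limit of 20000. A further 780 barcodes met the same marker rule but exceeded an upper limit, 377 of them on UMIs alone and 403 on both UMIs and genes. The upper limits thus removed 57.7% of the 1352 barcodes that met the marker rule and 3.43% of the 87340 barcodes within the other limits, and 26.0% of these 2995 removed barcodes met the rule.

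The edges of the rule held few barcodes. There were 32 members with 5 or 6 UMIs of JCHAIN, and 30 kept barcodes with 3 or 4 UMIs otherwise met the rule, with a median of 4 of the 6 helper genes in both sets. Exactly 2 helper genes were seen in 10 members, 3 in 18, 4 in 53, 5 in 197 and all 6 in 294. Just outside, 7 barcodes had 1 helper gene and 3 had none. CD3E, a chain of the T cell receptor complex, kept out 34 barcodes that met the rest of the rule, and 80 more were lost at 10% or more mitochondrial counts. No cell barcode sequence was shared between members of different dogs, although 1849 barcode sequences of all kept cells occurred in more than 1 dog. In T barcodes, which held CD3E and should lack JCHAIN, 2.05% had any UMI of JCHAIN (between 0.448 and 3.79% by dog) at a median depth of 5555 UMIs, and at most 0.343% in a dog reached 5 UMIs.

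The number of members differed widely among dogs. The healthy dogs 1 to 7 gave 12, 11, 77, 70, 10, 46 and 32 members, and the OS dogs 1 to 10 gave 11, 5, 3, 25, 19, 39, 36, 83, 66 and 27. As a share of kept barcodes, members ranged from 0.199% in healthy dog 1 to 1.41% in healthy dog 3 (median 0.672%). Among dogs with OS they ranged from 0.0804% in OS dog 2 (95% exact binomial interval 0.0261 to 0.188%) to 2.0% in OS dog 8 (1.59 to 2.47%), with a median of 0.571%. Such intervals cover counting error only. The lowest and the highest dog of the series both had OS, and the range of healthy dogs lay inside that of dogs with OS.

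**Figure D1:**
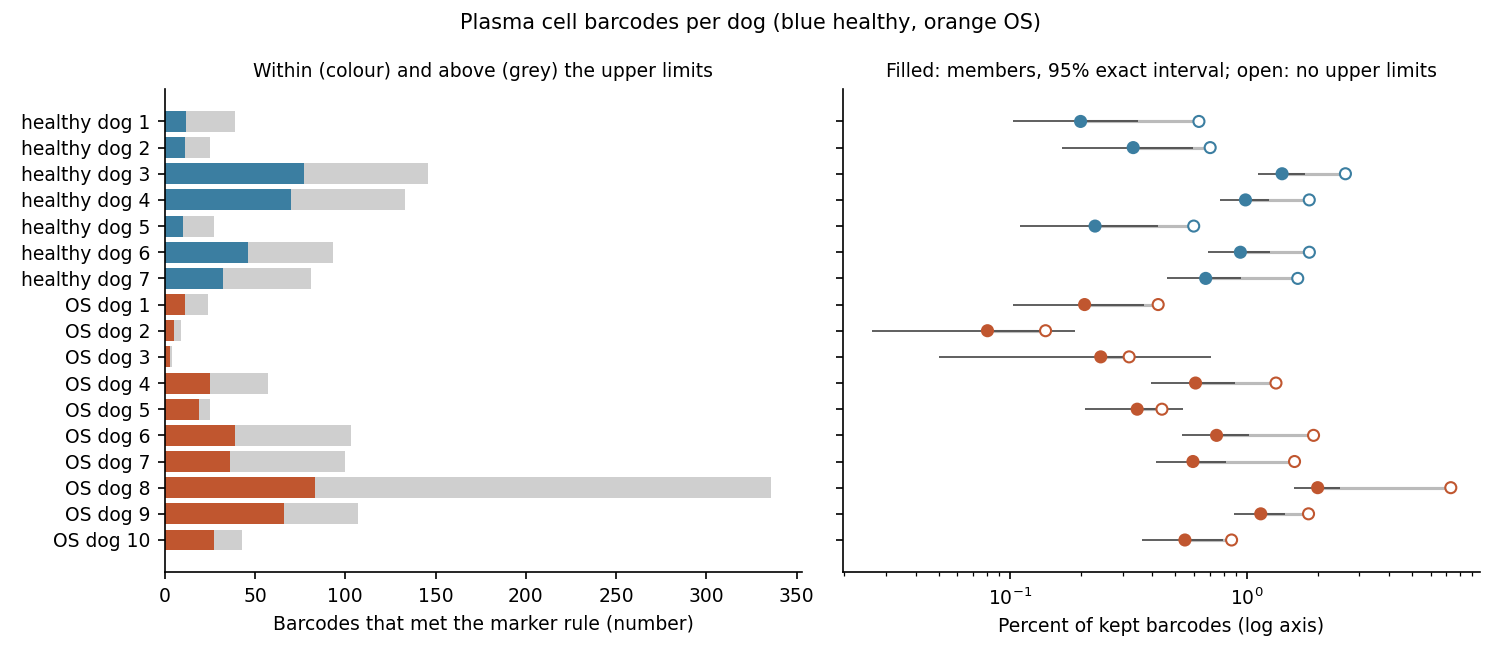
Left, number of barcodes per dog that met the marker rule within the upper limits (members, colored) and above them (grey). Right, members as percent of kept barcodes on a log axis with 95% exact binomial intervals (filled) and the same share without upper limits (open). OS dog 8 had 83 members and 253 barcodes above the limits, more than any other dog.

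Group differences in shares were tested by two-sided Wilcoxon rank-sum tests with exact p-values. Healthy dogs had a mean share of 0.683% ± 0.458 (SD, n = 7), and dogs with OS one of 0.652% ± 0.565 (SD, n = 10; exact p = 0.813, 0.813 after adjustment over 5 shares tested). The median shift between a dog with OS and a healthy dog was -0.0842 percentage points, with a 95% interval from -0.645 to 0.410. No difference was thus detectable, and the interval was wide beside the group means. Without upper limits the difference of the means turned, with healthy dogs at 1.41% ± 0.781 (SD, n = 7) and dogs with OS at 1.62% ± 2.10 (SD, n = 10; exact p = 0.417). This direction rested on OS dog 8, in which 75.3% of the 336 barcodes that met the rule were above a limit and the share without limits reached 7.30%. The next highest dog with OS, dog 6, had 1.92%.

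The members carried the transcription factors of plasma cells, which the rule did not use. The 7230 B barcodes held no CD3E and a UMI of at least 2 of 5 B cell genes including MS4A1, PAX5, BANK1 and EBF1. The 932 pDC barcodes held a UMI of at least 4 of 14 markers of plasmacytoid dendritic cells (pDCs). Their median depth of 15769 UMIs was close to that of members, and they also held many UMIs of monocyte markers, as given below. Levels of members were set against both sets. These values were counts per 1000000 UMIs (CPM), summed per dog in the 15 dogs with at least 10 members, which held 564 members, and they are descriptions of cells chosen by their counts. PRDM1 reached a median of 422 CPM over the 15 dogs (337 to 657) against 9.14 CPM in B barcodes and 2.3 CPM in pDC barcodes, and its lowest dog in members was above its highest in B barcodes (38.6 CPM). IRF4 reached 489 CPM against 34.4 CPM in B barcodes, POU2AF1, a coactivator of immunoglobulin genes, 282 against 87.9 CPM, and XBP1 66.9 against 7.08 CPM. All 4 were higher in members than in B barcodes in 15 of 15 dogs. ZBTB20, a further factor of long-lived plasma cells, went the other way, with 209 CPM in members and 339 CPM in B barcodes, lower in 15 of 15 dogs. Of 7853 genes at 10 CPM or more, 8.62% were higher and 33.4% lower in members in all 15 dogs, and the median gene was 0.55 lower on the log2(CPM + 1) scale.

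The rule genes themselves were the strongest of all lists, as their choice implies. JCHAIN (ENSCAFG00000028568) had a median of 2726 CPM (1857 to 6448) in members, 26.4 CPM in B barcodes and 2.99 CPM in pDC barcodes. By group, the lowest, median and highest dog had 1857, 2425 and 6448 CPM among healthy dogs and 1878, 2948 and 3783 CPM among dogs with OS, so the groups overlapped almost throughout. MZB1 was at 1352 against 3.76 CPM in B barcodes, FKBP11 at 878 against 44.9 CPM, TXNDC5 at 746 against 4.98 CPM, TNFRSF17 at 322 against 1.14 CPM, DERL3 at 213 against 9.63 CPM and CCR10 at 168 against 2.08 CPM. A UMI of MZB1 was seen in 97.0% of members and one of CCR10 in 67.5%, the lowest share among the helper genes.

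Genes of the secretory pathway were higher in members almost as a whole. Of 23 measured genes for folding in the ER, 20 were above B barcodes in every dog, with a list median of 3.06 on the log2 scale. Of all genes, 8.62% were above B barcodes in every dog. The chaperone HSP90B1 was at 4218 CPM (2298 to 6448) against 320 CPM (259 to 464) in B barcodes and 553 CPM in pDC barcodes. HSPA5 (BiP) was at 536 against 55.1 CPM, SDF2L1 at 1077 against 92.1 CPM, MANF at 712 against 57.7 CPM and CRELD2, a gene of the ER stress response, at 220 against 7.52 CPM. The exceptions were ERO1A, ERO1B and QSOX1, oxidases of disulfide bonds, with ERO1A at 15.3 against 27.8 CPM. Of 21 genes for translocation into the ER, 20 were above B barcodes in every dog (list median 2.33), among them the signal peptidase subunit SEC11C at 3204 against 535 CPM and the channel subunit SEC61B at 1589 against 120 CPM. SRP9 was higher in 14 of 15 dogs.

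Later steps of secretion were higher less evenly, and their counts stand against the 8.62% of all genes that were higher in every dog. For transport from ER to Golgi 15 of 22 genes were higher in every dog (list median 1.54), led by the cargo receptor LMAN1 at 979 against 23.4 CPM, and SEC24D, of the coat of export vesicles, at 148 against 11.3 CPM. For glycosylation 8 of 15 genes were higher in every dog (list median 1.33), with DDOST, a subunit of the enzyme that attaches N-glycans, at 512 against 72.8 CPM and the mannosidase MAN1A1 at 819 against 169 CPM. For the unfolded protein response and the degradation of misfolded proteins 7 of 14 were higher in every dog (list median 1.03). ERN1 (IRE1), the sensor that activates XBP1, was at 148 against 21.7 CPM and HERPUD1 at 506 against 89.4 CPM. The sensor ATF6 was lower in 15 of 15 dogs, at 63.6 against 130 CPM. SLC1A5 and SLC7A5, carriers of neutral amino acids, were higher in every dog at 38.9 against 4.69 CPM and 35.5 against 14.1 CPM, the only 2 of 5 amino acid genes at 10 CPM or more for which this held.

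The B cell program was low. PAX5, which maintains B cell identity, was at 3.26 CPM against 494 CPM in B barcodes, BACH2, a repressor of plasma cell differentiation, at 13.7 against 4349 CPM, and CD22 at 1.06 against 105 CPM. PAX5, MS4A1, BANK1 and EBF1 had been among the genes used to choose the B barcodes, so their difference is in part built in. Of 15 genes of B cell identity, 12 (80%) were below B barcodes in every dog, against 33.4% of all genes. MS4A1 (CD20) was still seen in 50% of members, at 65.8 CPM against 230 CPM, and CD79A, the signaling chain of the B cell receptor, was at 5044 CPM in members and 5885 CPM in B barcodes. All 7 measured MHC class II genes were lower in every dog. DLA-DRA was at 632 CPM (351 to 1092) against 4495 CPM (3427 to 5288), CD74 at 257 against 2491 CPM, and their activator CIITA at 2.78 against 277 CPM. Of 11 interferon-response genes, 8 (72.7%) were lower in every dog, against 33.4% of all genes. IFI6 went the other way, at 14.96 CPM against 0 in B barcodes and higher in 14 of 15 dogs.

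**Figure D2:**
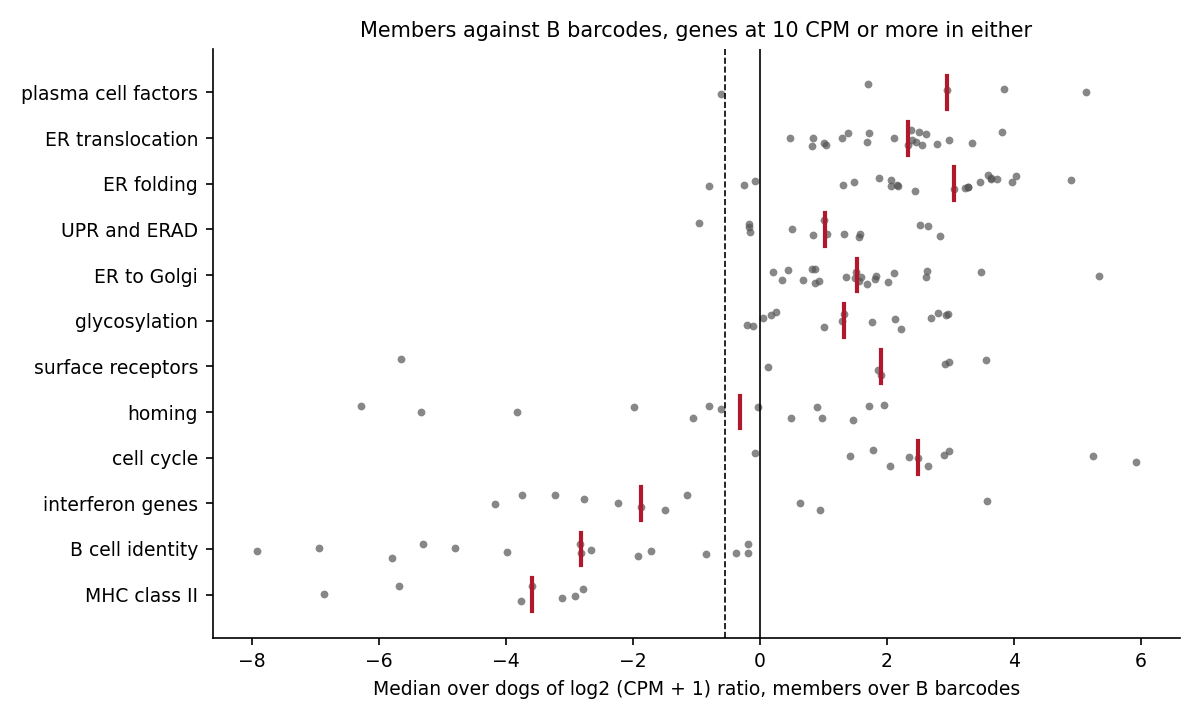
Each point is 1 gene at 10 CPM or more in members or B barcodes, placed at the median over 15 dogs of the log2 ratio of CPM + 1 between members and B barcodes. Red bars mark list medians, the solid line marks no difference and the dashed line the median of 7853 genes at -0.55. Lists of the secretory pathway lie to the right, B cell identity (median -2.82) and MHC class II (median -3.59) to the left.

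Receptors and adhesion molecules were higher or lower than in B barcodes, depending on the gene. Of 7 genes at 10 CPM or more on the list of surface receptors and survival genes, 3 (42.9%) were higher in every dog. All genes stood at 8.62%. In the other direction 1 (14.3%) was lower in every dog, against 33.4% of all genes. Among survival receptors, TNFRSF13B (TACI) was at 170 CPM in members and 22.8 CPM in B barcodes, CD38 at 53.2 against 3.80 CPM, and the interleukin-6 receptor chains IL6R at 55.0 against 14.5 CPM and IL6ST at 60.3 against 15.2 CPM. SDC1 (CD138), a surface marker of mature plasma cells, was listed at 0 CPM in the median dog and seen in 0.699% of members, and CD27 had no UMI in any member. Among homing molecules the integrin chains ITGA4 (769 against 407 CPM), ITGB7 (162 against 59.2 CPM) and ITGB1 (559 against 142 CPM) and the selectin ligand SELPLG (109 against 25.8 CPM) were higher in 15 of 15 dogs. ITGA4 with ITGB7 forms the integrin that binds mucosal endothelium. CXCR4, which retains cells in bone marrow, was at 4.43 against 221 CPM, CCR7, which leads cells into lymph nodes, at 0 against 76.8 CPM, and S1PR1, an exit receptor, at 51.4 against 90.2 CPM. These 3, with CXCR5 and ITGAL, were lower in every dog. That is 35.7% of 14 homing genes, near the 33.4% of all genes, whereas 28.6% were higher in every dog against 8.62% of all genes. CCR9, the receptor of cells that home to the small intestine, was seen in 9.62% of members.

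Outside the lists, the 10 genes with the largest ratio to B barcodes and a symbol in the files were RARRES2, OSBPL10, SPC24, NT5DC2, NUPR1, CKAP4, SULT2B1, CHPF, DGKI and LAP3. RARRES2, which encodes chemerin, a chemoattractant for leukocytes, was at 431 CPM (106 to 1410) against 2.31 CPM in B barcodes and 203 CPM in pDC barcodes, and was seen in 92.5% of members. OSBPL10 was at 242 against 4.69 CPM and CKAP4, a protein of ER sheets, at 285 against 10.9 CPM. DGKI, a diacylglycerol kinase, was at 498 CPM in members and 606 CPM in pDC barcodes.

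Markers of other cell types were counted over the whole lists. In members the 10 monocyte markers summed to between 35.8 and 260 CPM in healthy dogs and between 42.4 and 198 CPM in dogs with OS, against 1864 to 12285 CPM in B barcodes, where LYZ alone had a median of 3377 CPM. The levels of B barcodes thus include RNA of monocytes, and its part in the ratios above was not tested. In pDC barcodes the 10 monocyte markers summed to between 5280 and 16671 CPM, above the 14 pDC markers there (2027 to 4852 CPM). The pDC barcodes therefore cannot be read as pDCs alone, and what other cells they hold was not tested. The 10 T cell markers summed to between 57.5 and 307 CPM in members and at least 3733 CPM in T barcodes. The 14 pDC markers summed to between 501 and 1628 CPM in members and at least 2027 CPM in pDC barcodes. TCF4 (438 CPM), RUNX2 (158 CPM) and COBLL1 (118 CPM) made up most of that sum, whereas the defining genes IL3RA, FCER1A, RAB3C and CCND1 had a median of 0 CPM. At least 4 of the 14 pDC markers were seen in 84 members. No member held 2 or more of 5 progenitor markers or of 5 erythrocyte markers.

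Immunoglobulin genes with a symbol in the files were IGHM, the constant region of the IgM heavy chain, IGKC, that of the kappa light chain, and IGLV2-33. IGHM held at least 1% of the UMIs in 69 members (12.1%) and had no UMI in 449, with 54 in between. IGKC held at least 1% in 55 members (9.62%) and had no UMI in 488. Both were therefore on or off in most cells, and where they passed 1% they held a median of 3.05% (IGHM) and 17.2% (IGKC) of all UMIs. Both passed 1% in 13 members.

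Features without a symbol also passed 1% of UMIs in part of the members. Of these, 3 are described here, chosen after their values had been seen, and they are not the full set. ENSCAFG00000047066, also picked after its value had been seen, was at a median of 11430 CPM over dogs (150 to 45225). It had a UMI in 68.7% of members and was not used for the classes below. ENSCAFG00000032358 had a UMI in 75% of members and ENSCAFG00000031806 in 92.5%, while 278 and 355 members passed 1%. These 2 were thus less clearly on or off than IGHM and IGKC. ENSCAFG00000030258, ENSCAFG00000032358 and ENSCAFG00000031806 held together between 7.90 and 15.9% of the UMIs of members by dog (median 10.5%, n = 15), while IGHM, IGKC and IGLV2-33 together held between 0.346 and 4.98% (median 1.86%). The files do not pair these IDs with a gene name. ENSCAFG00000030258 alone passed 1% of UMIs in 205 members (35.8%), ENSCAFG00000032358 alone in 277 (48.4%) and IGHM alone in 68 (11.9%). Only 2 members had more than 1 of these 3 above 1%, and 20 had none, so that nearly all members fell into 1 of 3 classes. ENSCAFG00000031806 passed 1% in 3 of 55 members with IGKC above 1% and in 352 of the other 517 (68.1%). Within the classes, IGKC passed 1% in 19.1% of the 68 members of the IGHM class, in 7.80% of the ENSCAFG00000030258 class and in 8.30% of the ENSCAFG00000032358 class.

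The mix of the 3 classes varied among dogs, and the ENSCAFG00000030258 class was largest in OS dog 8. In the other 14 dogs with at least 10 members, the ENSCAFG00000030258 class held between 11.1 and 53.1% and the ENSCAFG00000032358 class between 27.3 and 69.4% of members. In OS dog 8 they held 66.3% (55 of 83 members) and 18.1% (15 members). Above the upper limits the ENSCAFG00000030258 class took 193 of 253 barcodes (76.3%) in this dog. In the other dogs with at least 10 such barcodes it took between 7.14 and 64.7%, with healthy dog 5 (64.7% of 17 barcodes), healthy dog 7 (59.2% of 49) and OS dog 1 (53.8% of 13) next. The IGHM class ranged from 5.26 to 20% over the 15 dogs and was 12.0% in OS dog 8.

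**Figure D3:**
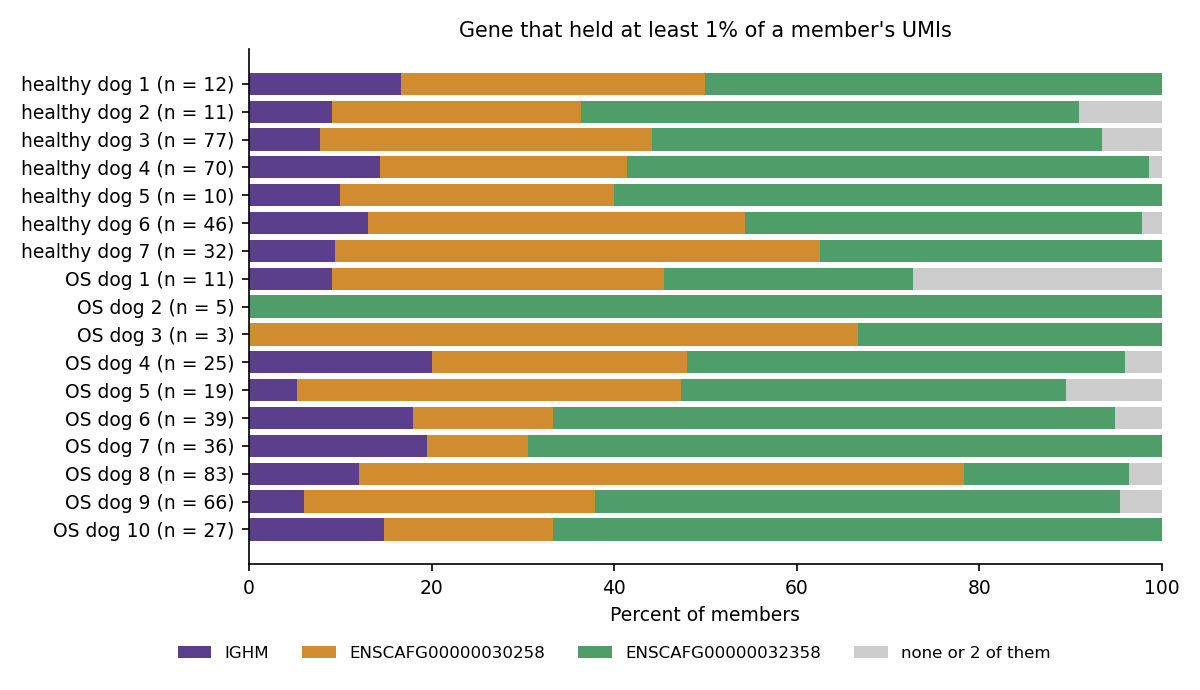
Percent of members of each dog in which IGHM, ENSCAFG00000030258 or ENSCAFG00000032358 alone held at least 1% of UMIs, with members in which none or 2 did in grey and the number of members in parentheses. OS dog 8 is the dog with at least 10 members with the largest share of the ENSCAFG00000030258 class, at 66.3%.

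Within dogs, the ENSCAFG00000030258 and ENSCAFG00000032358 classes differed in secretory and homing genes. Counts of dogs cover the 10 dogs with at least 5 members of each class. The comparison is a description, since the classes were defined from the same counts. Median levels are over every dog with at least 5 members of the class in question. That is 10 dogs for ENSCAFG00000030258 and 15 for ENSCAFG00000032358, so the medians of a pair cover unlike sets of dogs. Of 6530 genes at 10 CPM or more in either class, 0.980% were lower and 0.322% higher in the ENSCAFG00000030258 class in all 10 dogs. JCHAIN was lower in the ENSCAFG00000030258 class in 10 of 10 dogs, with median levels of 1837 against 2831 CPM. TNFRSF17 (207 against 358 CPM), TNFRSF13B (102 against 172 CPM) and ITGA4 (549 against 921 CPM) were also lower in 10 of 10 dogs, and CCR10 (134 against 200 CPM) was higher in only 1 of 10. Over all members of a class in any dog, CCR9 was seen in 0.976% of the ENSCAFG00000030258 class. It was seen in 15.9% of the ENSCAFG00000032358 class and 11.8% of the IGHM class. These percents pool cells over dogs. By dog, the median of CCR9 was 5.39 CPM (0 to 93.8, 15 dogs) in the ENSCAFG00000032358 class. It was 0 CPM in the IGHM class (0 to 44.4, 7 dogs), so fewer dogs carried that share. In the other direction, FKBP11 (1192 against 820 CPM), XBP1 (82.0 against 52.8 CPM) and IL6ST (82.1 against 37.0 CPM) were higher in the ENSCAFG00000030258 class in 10 of 10 dogs and ITGB1 (798 against 468 CPM) in 9 of 10. The median depth of the classes was alike, at 15799 and 15034 UMIs. These genes were picked after their values had been seen. MZB1 and PRDM1 were higher in the ENSCAFG00000030258 class in 7 of 10 dogs and TXNDC5 in 2.

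Members in which IGHM passed 1% (IGHM-high) were tested against the others (IGHM-low) in the same dogs, with edgeR's quasi-likelihood test on summed counts and the dog as a block. Only 2 dogs had 10 members of each class, fewer than the number of dogs set for a test, so the minimum of 5 was used, which gave 7 dogs with 52 IGHM-high and 324 IGHM-low members. Of 9302 genes, 5 (0.0538%) were called higher and 14 (0.151%) lower at a Benjamini-Hochberg adjusted p below 0.01 and a log2 fold change beyond 0.58 in size. IGHM itself, which defined the classes, was higher by 7.43, and the features ENSCAFG00000030258 and ENSCAFG00000032358 fell by 3.54 and 7.33 on the log2 scale. Members rarely passed 1% for IGHM and for either of these 2, so their fall was largely built into the classes. In all, 12 of the 19 genes called had no symbol. Among the 5 called higher, ENSCAFG00000031795 was higher in 1 of 7 dogs and ENSCAFG00000045973 in 3, each with a median of 0 CPM in IGHM-high members. Another feature called higher had the same median and was higher in 3 dogs. The median gene was 0.16 lower on the log2 scale, and changes are to be read against that shift.

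Apart from IGHM, 6 genes with a symbol were called, all lower in IGHM-high members. CRIP1, a small zinc-binding LIM protein, had between 5104 and 10996 CPM in IGHM-high members and between 8769 and 14458 CPM in IGHM-low members, lower in 7 of 7 dogs (log2 fold change -0.81 ± 0.13 (SE), adjusted p = 0.000326 by edgeR and 0.000794 by DESeq2). ZBTB20, the factor that was also lower in members than in B barcodes, was lower in 6 of 7 dogs (-1.53 ± 0.27 (SE), adjusted p = 0.00123 by edgeR, 0.0766 by DESeq2). The transcription factor ZEB2 (-2.88), the Notch coactivator MAML3 (-1.66), the dynein chain DYNC1I1 (-1.35) and the ubiquitin-conjugating enzyme UBE2E3 (-1.23) were called by edgeR, with adjusted p between 0.00409 and 0.00983, and not by DESeq2. CRIP1 lost its call without healthy dog 3 (adjusted p = 0.0116 by edgeR), and with the barcodes above the upper limits added its log2 fold change was -0.20 (adjusted p = 0.227 by edgeR). ZBTB20 and ZEB2 each lost their call when any of 5 of the 7 dogs was left out, DYNC1I1 for 6 dogs, and MAML3 and UBE2E3 for each dog. In these fits the log2 fold change ran from -2.08 to -1.40 for ZBTB20 and from -3.41 to -2.39 for ZEB2. It ran from -1.55 to -1.17 for DYNC1I1, -1.93 to -1.44 for MAML3 and -1.33 to -1.04 for UBE2E3. With doublets removed ZEB2 (-2.15, adjusted p = 0.174 by edgeR), MAML3 (-1.58, 0.0175), DYNC1I1 (-1.29, 0.0133) and UBE2E3 (-1.19, 0.0156) were not called. With the filter filterByExpr none of the 6 was called, at log2 fold changes of -0.67 for CRIP1, -1.42 for ZBTB20, -2.76 for ZEB2, -1.55 for MAML3, -1.22 for DYNC1I1 and -1.10 for UBE2E3.

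Apart from ZBTB20, edgeR called no gene of the lists between these classes in the fit as reported. Under the alternatives, JCHAIN was called higher in 5 of 13 and TNFRSF13B in 4 of 14. JCHAIN, a gene of the rule, was at 2938 to 6523 CPM in IGHM-high and 1873 to 3204 CPM in IGHM-low members. TNFRSF13B was higher in 7 of 7 dogs, with 209 to 414 CPM against 109 to 165 CPM (0.71 ± 0.16 (SE), adjusted p = 0.0295 by edgeR, called by DESeq2 at 0.000716). Its log2 fold change was 0.37 (adjusted p = 0.123 by edgeR) with the barcodes above the upper limits added. All 7 MHC class II genes had a log2 fold change below 0 (list median -0.73), and none was called, while 3211 of all 9302 genes lay above 0. That list median was -1.26 without OS dog 7 and -0.27 with the barcodes above the upper limits added. All 8 monocyte markers tested also lay below 0 (list median -0.79, none called), and their part in the lower genes, ZEB2 among them, was not tested. Of the 21 ER translocation genes and 23 ER folding genes, 20 and 22 lay below 0, with list medians of -0.24 and -0.27, close to the shift of all genes, and none was called. With the barcodes above the limits added these medians were 0.03 and -0.01.

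With the barcodes above the upper limits added, a choice made after seeing the data, the same test covered 10 dogs with 131 IGHM-high and 1068 IGHM-low barcodes. It called 92 of 11537 genes, 16 (0.139%) higher and 76 (0.659%) lower, including 14 of the 19 genes above. ZEB2 (-1.72), MAML3 (-1.49), ZBTB20 (-1.12), DYNC1I1 (-1.17) and UBE2E3 (-0.71) were again called lower, and CRIP1 was not called. Of the 7 rule genes tested, all had a log2 fold change above 0 and 2 were called. These were JCHAIN (0.92, adjusted p = 1.88e-06 by edgeR) and TXNDC5 (0.69, 3.98e-05), each higher in 10 of 10 dogs. Of 7 T cell markers tested, 3 had a log2 fold change above 0 (list median -0.02, from -2.06 to 1.28), and 1 was called, CD3D, which was higher (1.28, 99.7 against 36.7 CPM, 10 of 10 dogs). Of the 14 cell cycle genes 1 was called, TYMS (-0.76), and the list median was -0.09 against -0.10 over all genes. This list does not cover all genes of DNA replication. MCM3 (-0.86) and MCM4 (-0.92), picked from outside it after their values had been seen, were called lower, and such genes were not counted as a set. Within the upper limits that list median was 0.25 against -0.16 over all genes, with 11 of 14 genes above 0 and none called. All 10 monocyte markers had a log2 fold change below 0 (list median -1.05), and LYZ (-2.07) and FN1 (-1.97) were called lower. Their part in the other calls was not tested.

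Some genes of the cell cycle were higher in members than in B barcodes. Of 11 at 10 CPM or more, 4 (36.4%) were higher in every dog, against 8.62% of all genes, and the list median was 2.49 on the log2 scale. To compare barcodes of unequal depth, each was thinned to 2000 UMIs, and a barcode was called cycling where at least 2 of 14 measured cell cycle genes had a UMI. Such a call is a count of transcripts and not a measure of division. Of 567 members deep enough, 96 (16.9%) were cycling, against 44 of 6946 B barcodes (0.633%). Without thinning the share of members was 56.6%. MKI67, a marker of proliferating cells, kept a UMI after thinning in 21.7% of members and 0.331% of B barcodes. In whole counts MKI67 was at 148 CPM (94.0 to 222) against 1.52 CPM in B barcodes and CENPF, a kinetochore protein, at 97.1 against 2.35 CPM, both higher in 15 of 15 dogs. TYMS, the thymidylate synthase, was at 32.9 against 31.6 CPM.

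Barcodes above the upper limits were cycling far more often. Of these 780, 478 (61.3%) were cycling after thinning to the same 2000 UMIs. In 14 dogs with at least 10 barcodes in each set, the share ranged from 42.3 to 87.8% (median 69.8%) above the limits and from 0 to 27.6% (median 15.2%) in members, higher above the limits in 14 of 14 dogs. By depth before thinning, the share was 28.6% of 7 barcodes under 5000 UMIs, 8.47% of 59 barcodes with 5000 to 10000 UMIs, 14.7% of 204 with up to 15000, 19.9% of 297 with up to 20000, 45.0% of 464 with up to 30000, 82.5% of 268 with up to 50000 and 100% of 48 above that. All 11 cell cycle genes at 10 CPM or more had higher CPM above the limits than in members in 14 of 14 dogs, with a list median of 2.65 on the log2 scale, where 8.48% of all genes did so and the median gene stood at 0.10. In the other direction 1.36% of all genes were lower above the limits in all 14 dogs. JCHAIN was among them, at 1563 CPM above the limits against 2726 CPM in members. Whether a barcode of such depth held 1 cell or 2 was not tested.

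**Figure D4:**
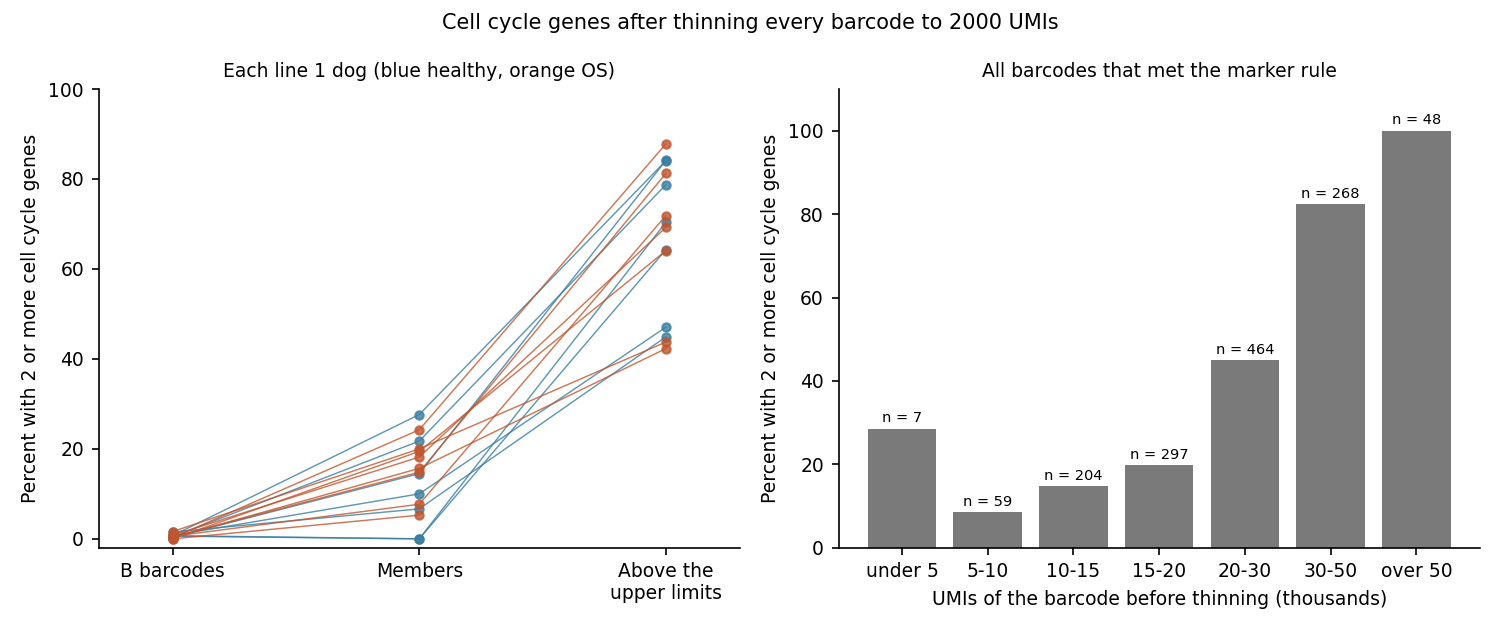
Left, percent of B barcodes, members and barcodes above the upper limits with 2 or more cell cycle genes after thinning to 2000 UMIs, 1 line per dog, with sets under 10 barcodes left out. Right, the same percent for all barcodes that met the marker rule by their UMIs before thinning, with the number of barcodes on each bar. The share went from 8.47% at 5000 to 10000 UMIs to 100% above 50000 UMIs, and the first bar (28.6%) rests on 7 barcodes.

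Genes of the rule made up a smaller share of UMIs in cycling members than in the other members. In the 7 dogs with at least 5 members of each kind, JCHAIN was at 1670 CPM in 82 cycling members and 2708 CPM in 319 others, MZB1 at 946 against 1784 CPM, FKBP11 at 637 against 1110 CPM and DERL3 at 167 against 269 CPM, each lower in 7 of 7 dogs. Of 6989 genes at 10 CPM or more in either kind, 140 were lower and 611 (8.74%) higher in cycling members in all 7 dogs. TXNDC5 and TNFRSF17 were higher in 1 of 7 dogs. Of the 7 MHC class II genes, DLA-DRA (844 against 577 CPM) and HLA-DQB2 (262 against 129 CPM) were higher in 7 of 7 dogs. The others were mixed, with DLA-DMA higher in 5 dogs, DLA-DQA1 and CD74 in 4, DLA-DOA in 2 and CIITA in 1. IGKC was at 4948 against 19195 CPM. These are descriptions of cells divided by their own counts, and CPM were pooled over the 7 dogs.

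The remaining shares were compared between groups in the 7 healthy dogs and 8 dogs with OS that had at least 10 members. Among healthy dogs IGHM-high members made up 11.5% ± 3.24 (SD, n = 7) of members, and among dogs with OS 13.2% ± 5.87 (SD, n = 8; exact p = 0.556), with a median shift of 2.27 percentage points and a 95% interval from -3.95 to 8.57. IGKC-high members made up 14.2% ± 9.22 (SD, n = 7) and 8.76% ± 5.83 (SD, n = 8) (exact p = 0.232), a shift of -4.98 with an interval from -13.6 to 3.73. Cycling members made up 11.5% ± 10.5 (SD, n = 7) and 15.7% ± 6.39 (SD, n = 8) (exact p = 0.379), a shift of 5.26 with an interval from -6.92 to 15.7. IGHM, IGKC and IGLV2-33 together held 2.04% ± 0.996 (SD, n = 7) and 2.63% ± 1.55 (SD, n = 8) of the UMIs of members (exact p = 0.613), a shift of 0.265 with an interval from -1.11 to 2.38. The adjusted p over the 5 shares was 0.766 for each of these. In every case the spread among dogs of a group was as large as or larger than the difference between groups.

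Gene levels of members were tested between groups with edgeR's quasi-likelihood test on counts summed per dog, in the 4 healthy dogs and 6 dogs with OS that had at least 25 members. None of 9659 genes (0%) passed an adjusted p below 0.01 with a log2 fold change beyond 0.58 in size. At an unadjusted p below 0.05 there were 436 genes (4.51%), 243 higher and 193 lower in dogs with OS, and DESeq2 called 1. In counts simulated for these 10 libraries, the procedure recovered 48% of genes changed by 1 and 100% of genes changed by 2 on the log2 scale. The changed genes were drawn only from the more abundant genes. A difference of the smaller size in a given gene could thus have been missed. For less abundant genes recovery was not simulated, so larger differences in them could have been missed too.

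No gene of the lists of plasma cell function was called between the groups. The median log2 fold change was -0.11 for ER translocation, -0.11 for ER folding, 0.02 for transport from ER to Golgi, 0.15 for plasma cell factors, -0.29 for MHC class II and 0.05 for homing, against 0.00 over all genes. The MHC class II median was -0.04 without healthy dog 3, -0.09 without OS dog 8, -0.47 without healthy dog 6, -0.45 without OS dog 6, -0.44 without healthy dog 7, -0.20 without OS dog 7 and -0.10 without upper limits, and it turned to 0.12 with the replicate number as a block. Without upper limits the medians for ER translocation and ER folding turned to 0.06 and 0.03. They were -0.05 and -0.03 without healthy dog 7, and -0.21 and -0.19 without OS dog 8. The homing median was -0.13 with the block, -0.12 with dogs of at least 10 members, -0.002 without healthy dog 3 and -0.003 without OS dog 7. Over all genes, 27 (0.28%) were higher and 29 (0.3%) lower in dogs with OS with no overlap. Among markers of other cell types, platelet markers had a list median of 0.80 (4 of 5 above 0) and T cell markers 0.43 (6 of 7). Neutrophil markers had 0.14 (2 of 4), pDC markers 0.13 (5 of 7) and monocyte markers -0.13 (4 of 8), and none was called.

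The cell cycle list lay to one side without a call. All 14 of its genes had a log2 fold change below 0, with a median of -0.77, and 6 had an unadjusted p below 0.05, while none passed the adjusted threshold. These genes are read from the same cells and are not independent of each other. CDK1, the kinase that drives mitosis, had the lowest fold change of the 14 and was picked after its value had been seen. It was at 29.0, 23.2, 24.2 and 6.56 CPM in healthy dogs 3, 4, 6 and 7 and at 16.4, 4.89, 3.60, 5.90, 5.48 and 11.1 CPM in OS dogs 4, 6, 7, 8, 9 and 10 (log2 fold change -1.65 ± 0.40 (SE), adjusted p = 0.58 by edgeR). Healthy dog 7 lay among the dogs with OS, and the groups overlapped. The list median was -0.39, with 12 of 14 genes below 0, without healthy dog 3, and -0.03, with 8 of 14 below 0, when barcodes above the upper limits were added. In the same 10 dogs the share of cycling members overlapped fully, at 6.67 to 27.6% in healthy dogs and 7.69 to 24.2% in dogs with OS.

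**Figure D5:**
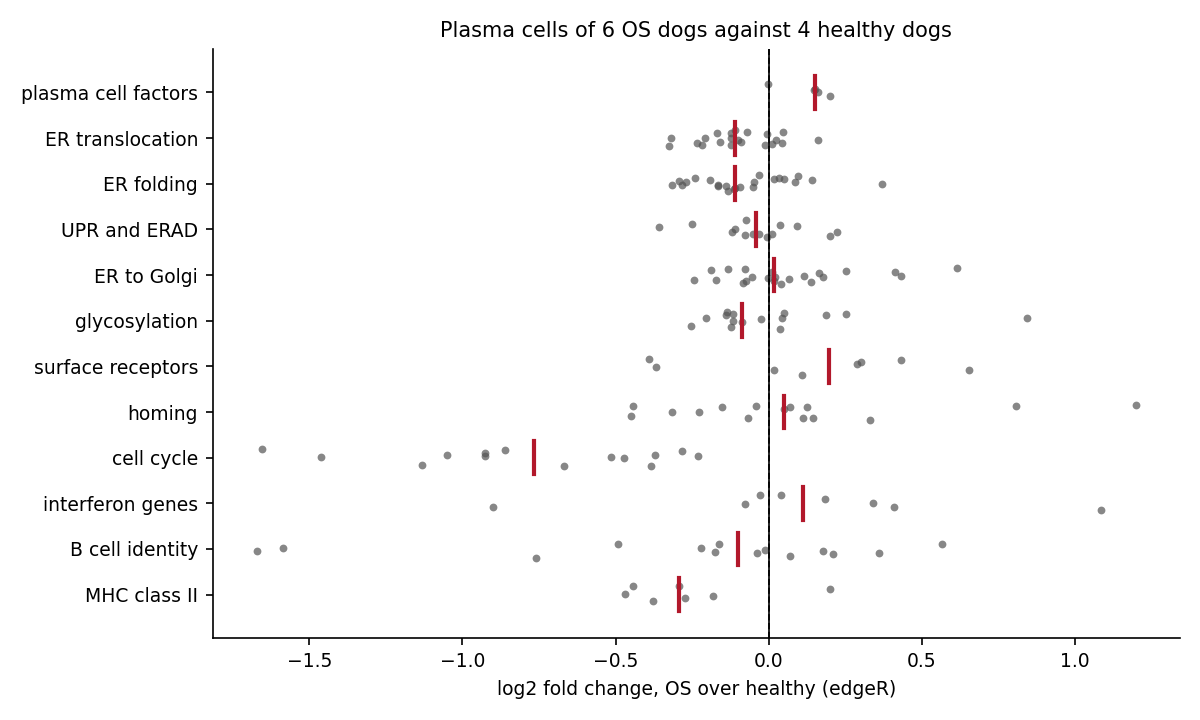
Each point is 1 gene, placed at its log2 fold change between members of 6 dogs with OS and 4 healthy dogs (edgeR), with red bars at list medians and lines at 0 and at the median of 9659 genes, which coincide. All 14 cell cycle genes lie below 0 (median -0.77), and no gene passed the adjusted threshold.

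The gene with the smallest p was ENSCAFG00000005494, without a symbol in the files. It was at 6.55, 6.34, 1.42 and 0 CPM in healthy dogs 3, 4, 6 and 7 and at 537, 506, 281, 3.69, 242 and 375 CPM in OS dogs 4, 6, 7, 8, 9 and 10 (log2 fold change 6.18 ± 0.93 (SE), adjusted p = 0.0282 by edgeR). It was the gene that DESeq2 called (adjusted p = 2.53e-05), and edgeR called it with genes at 1 count or more (7.45e-06) and with the replicate number as a block (1.19e-05). OS dog 8 lay among the healthy dogs. The feature was present or near absent by dog rather than by cell. In healthy dog 5, which had too few members for the test, it was seen in 10 of 10 members at 213 CPM, and in OS dogs 1 and 3 in none of their members. It also followed the dog in T barcodes, of which 65.0% held it in healthy dog 5 and between 61.5 and 86.9% in OS dogs 4, 6, 7, 9 and 10, against 1.09 to 5.45% in the other 11 dogs. The adjusted p by edgeR was 4.38e-08 without OS dog 8 and between 0.0524 and 0.250 with any other single dog left out. The log2 fold change was 3.81 (adjusted p = 0.852 by edgeR) with dogs of at least 10 members and 3.20 (0.845) without upper limits.

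Further genes by the smallest p were not called by edgeR or DESeq2. GBE1, the branching enzyme of glycogen synthesis, was at 18.7, 8.45, 11.4 and 15.3 CPM in healthy dogs 3, 4, 6 and 7 and at 35.6, 27.7, 36.0, 22.9, 45.0 and 27.8 CPM in OS dogs 4, 6, 7, 8, 9 and 10, so that the groups did not overlap (log2 fold change 1.25 ± 0.29 (SE), adjusted p = 0.58 by edgeR). CMA1, a mast cell protease, was at no more than 1.06 CPM in healthy dogs and between 2.74 and 9.59 CPM in dogs with OS, a level of few UMIs (3.03 ± 0.69 (SE), adjusted p = 0.58 by edgeR). On the lower side the 3 genes with the smallest p had no symbol. ENSCAFG00000013365 was at 25.2 to 32.7 CPM in healthy dogs and 9.79 to 19.8 CPM in dogs with OS (-1.12 ± 0.26 (SE), adjusted p = 0.58 by edgeR), and ENSCAFG00000044389 was at 1.42 to 14.96 against 0 to 1.10 CPM (-3.46). Without upper limits the log2 fold changes were 0.73 for GBE1, 0.47 for CMA1, -0.38 for ENSCAFG00000013365 and -1.98 for ENSCAFG00000044389, and CMA1 was at 1.45 with dogs of at least 10 members.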

How the data were processed

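Per the labels and the study's methods, leukocytes were processed with a Chromium 3′ kit and the authors counted UMIs with Cell Ranger 7.0.0 on CanFam3.1. The deposited values were raw UMI counts per gene and barcode, 1 matrix per dog and without normalization. Whether the matrices hold the study's counts with intronic reads or those without is not given in the sources used here. Totals per library ran from 7740230 to 56510134 UMIs.

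The members and gene lists were chosen with earlier results of these data known. Groups came from the labels. Barcode limits were those of the study's methods. Doublets were kept in the main values and scored with Scrublet in Scanpy 1.11.5 (3571 of 84345 barcodes marked, 27 of them members, at 0.8% per 1000 barcodes). Scrublet's own threshold marked 1402. CPM are UMIs of a gene per 1000000 UMIs of the summed barcodes, and log2 ratios used CPM + 1. Exact binomial (Clopper-Pearson) intervals are at 95%.

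Shares were compared in dogs with at least 10 members by exact two-sided Wilcoxon tests. Gene tests used edgeR 4.0.16 in R 4.3.3 (TMM, glmQLFit, glmQLFTest) on genes with at least 10 counts, with calls as in the study (adjusted p below 0.01, log2 fold change beyond 0.58), and DESeq2 1.42.0 as an alternative. For IGHM-high against IGHM-low members the intended minimum of 10 per class left 2 dogs, so a minimum of 5 was used. Genes named were those of the lists, immunoglobulin genes, per count of calls the 5 largest changes in each direction (with none called, the 3 smallest p in each direction), and the 10 largest ratios to B barcodes at 50 CPM or more outside the lists. Of features without a symbol, at most 2 per direction are named, and names outside the rule are marked as chosen after their values were seen. SPIB, CR2, PPIB, KDELR1, TMED10, SEC62, SEC63, DAD1, OST4, DPM3, PHGDH, CCNB1, BIRC5, KLF2, MX1, CREB3L2, GP1BA and TREML1 and some MHC class II genes were not found under these symbols and were not analysed here. Procedures were tested on simulated data. In the IGHM comparison they recovered 42% of genes changed by 1 and 90% of those changed by 2 on the log2 scale, with 2 false calls among 9302 genes.

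Alternatives were no upper limits, doublets removed, members with pDC markers removed, 20 UMIs of JCHAIN, middle-aged dogs only, other denominators, other cuts for chains and cycling, DESeq2 and its size factors, immunoglobulin genes and JCHAIN left out, other gene filters, 10 members per dog, age class as a covariate, a replicate block and each dog left out. Without OS dogs 2, 3 and 8, the older form of the quasi-likelihood fit and the IGHM comparison without upper limits were added after seeing the data. Of the 5 genes that chose the B barcodes, 1 is not reported here. Sequencing reads were not analysed here.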

Additional observations from a re-analysis of the deposited data

Results flagged for a closer look

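Among 18 quantities in 2 groups each, 9 of 36 sets of dogs had an extreme dog past Dixon's 95% critical value, and chance gives about 1 in 20. The share of barcodes that met the marker rule without upper limits was 7.30% in OS dog 8, with the next dog with OS at 1.92%. Members of OS dog 2, of which there were 5, had a median of 4266 UMIs and 3.66% mitochondrial counts, below the next dogs with OS at 12902 UMIs and 5.42%.

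The other extreme values were sums of markers of other cell types in members. The pDC markers summed to 1628 CPM in healthy dog 2 (next healthy dog 913 CPM). The T cell markers summed to 307 CPM and the platelet markers to 106 CPM in OS dog 1 (next dogs with OS 180 and 39.2 CPM). The monocyte markers summed to 260 CPM in healthy dog 4, where 1 of 70 members held 186 of 246 UMIs, and to 64.7 CPM without it. The neutrophil markers summed to 922 CPM in healthy dog 5 and 3313 CPM in OS dog 5, where again 1 member held 154 of 156 and 895 of 903 UMIs. Without that member the sums were 13.4 and 31.0 CPM.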

How the results depend on the processing

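No share passed p = 0.05 under any alternative, and the lowest p over all of them was 0.0593. For the plasma cell share the difference of the means (OS minus healthy, in percentage points, -0.0305 as reported) turned to 0.205 without upper limits, 0.263 with middle-aged dogs only and 3.06 as a share of members and B barcodes, and lay between -0.180 and 0.0913 with each dog left out in turn, above 0 for 7 of 17 dogs. For the cycling share (4.16 as reported) it turned to -3.20 without upper limits, -4.74 with 20 UMIs of JCHAIN, -10.3 without thinning and -0.858 at 1000 UMIs, and it was 2.24 without healthy dog 1 or healthy dog 2, 6.85 without healthy dog 3 and 2.61 with doublets removed. The shares of IGHM-high and IGKC-high members and of immunoglobulin UMIs kept their direction under 24, 24 and 22 alternatives but not their size. IGHM-high (1.77 as reported) was 0.803 without OS dog 4, 0.882 without OS dog 7 and 0.0736 without members with pDC markers, IGKC-high (-5.42) was -2.78 without healthy dog 5 and -0.374 with 20 UMIs of JCHAIN, and immunoglobulin UMIs (0.597) were 0.262 without OS dog 4, 0.315 without healthy dog 7 or OS dog 10, and 0.0184 with middle-aged dogs only. Without OS dogs 2, 3 and 8 the 5 differences were -0.0826, 1.77, -4.51, 4.16 and 0.722.

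Between groups, 0 genes were called as reported, 1 by DESeq2, 1 at 1 count or more, 1 at an adjusted p below 0.05 and between 0 and 1 with each dog left out (1 without OS dog 8). Of the 19 genes called between IGHM-high and IGHM-low members, DESeq2 called 6 among its 8. Counts were 8 with filterByExpr, 36 at an adjusted p below 0.05, 38 with the older form of the fit, 92 without upper limits, and between 11 and 20 with each dog left out (11 without healthy dog 3, 12 without OS dog 6, 12 without OS dog 8). At 5% of UMIs 1 dog was left, and this alternative was not run. The cause of these moves was not tested.

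Replicate numbers are shared between groups but belong to different dogs, and members of same-numbered dogs deviated from their group means with correlations of -0.08, -0.02 and 0.055 for numbers 4, 6 and 7, so the numbers do not pair the samples. With the number as a replicate block, 2 genes were called (3 dogs per group), and the differences of the 5 shares were -0.279, 1.68, -5.99, 3.54 and 0.643 with the lowest exact p at 0.0938. The upper limits left out 780 of the 1352 barcodes that met the marker rule.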
